A study of Mus musculus with 22 samples.

Results

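The effect of deleting Sox9 in the urogenital sinus epithelium of XX mouse fetuses was measured on 10 arrays, 5 of female knockouts and 5 of their female littermate controls, out of 22 arrays in the series. The sex and genotype of each array were read from its title. All fetuses were C57BL/6J and were taken at embryonic day E16.75. The knockouts were ShhCre/+; Sox9fl/fl, so that both copies of Sox9 were floxed and Cre recombinase sat at 1 Shh allele. The controls were Shh+/+; Sox9+/fl and thus had 1 floxed copy of Sox9, an undisturbed Shh locus and no Cre, although the series text calls them wildtype. The male arrays, 6 controls and 6 knockouts of the same genotypes, were used for the common estimate of the spread and for the test of a difference between the sexes. The sinus had been treated with trypsin and collagenase, the mesenchyme taken off under a microscope, and the epithelium of the bladder and urethra removed. Replicates are labelled as biological, with no word on whether tissue was pooled for an array, so each p-value reflects the spread between these arrays alone. All genes with exactly 1 symbol were considered, which were 30142, each read from its probe set of highest mean over the 22 arrays. Of these, 19067 were bright enough to be tested.

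SOX9 is an HMG-box transcription factor that directs testis and cartilage development and marks progenitor cells in several budding epithelia. The urogenital sinus is the fetal tube below the bladder, which gives rise to prostatic buds in XY fetuses and to the urethra and part of the vagina in XX fetuses. Its epithelium secretes sonic hedgehog, the product of Shh, to the surrounding mesenchyme, and an Shh-driven Cre therefore acts in this layer.

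The values are log2 expression values as deposited, on which a difference of 1 is a 2-fold difference. The 10 female arrays had medians between 5.16 and 5.29, while 23 background control probe sets had medians between 3.09 and 3.33. Female arrays correlated across genes at r = 0.991 to 0.995 within the controls and within the knockouts (10 pairs each), and at 0.99 to 0.995 between the groups (25 pairs). In a principal component analysis of the female arrays, genotype accounted for 6.08% of the variance along the first component, which held 20.6% of the total, for 9.24% of the second (15.7% of the total) and for 44.2% of the third (14% of the total). The 11 markers of urogenital sinus epithelium that were measured all lay above the array medians on average over the female arrays. So did 11 of 11 urothelium, 11 of 13 mesenchyme, 9 of 10 smooth muscle and 11 of 12 immune markers. This level therefore does not identify the tissue. Krt5, a basal keratin, read 12.67 to 12.81 in controls and 12.66 to 12.72 in knockouts, and Krt8, a luminal keratin, read 12.00 to 12.12 and 12.04 to 12.19. Of the 14 mesenchyme markers listed, 11 were bright enough to be tested, and some read high on all female arrays. Dcn, a matrix proteoglycan, read 9.91 to 10.09 in controls and 9.81 to 10.35 in knockouts, and Osr1, a transcription factor of urogenital mesenchyme, 9.62 to 10.22 and 9.60 to 10.04. The collagen gene Col1a1 read 7.36 to 7.98 in controls and 7.52 to 7.68 in knockouts, whereas Tbx18 (3.69 to 3.90 and 3.70 to 3.81) lay near background. Male control 6 stood apart from the other male controls, with a mesenchyme mean of 7.95 against 6.86 to 7.16 in those 5 arrays. Leaving it out lowered the female calls from 6 to 5, and several of the results it moves are given both ways.

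Few genes passed the test in XX epithelium, and all of those that did fell. At a Benjamini-Hochberg adjusted p under 0.05 in limma, 6 genes fell (0.0315% of the genes tested) and 0 rose (0%). The genes that fell were Sox9, Shh, Myo3a, Pcsk6, Gpr157 and Acsm3. At an unadjusted p under 0.05 there were 458 lower genes (2.4%) and 585 higher genes (3.07%), together 1043 where 953 are expected by chance. The 5 knockout arrays lay wholly below the 5 controls for 119 genes (0.624%) and wholly above them for 147 genes (0.771%). The median log2 fold change over all genes tested was 0.0083, and 54.8% of genes had a positive value.

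**Figure D1:**
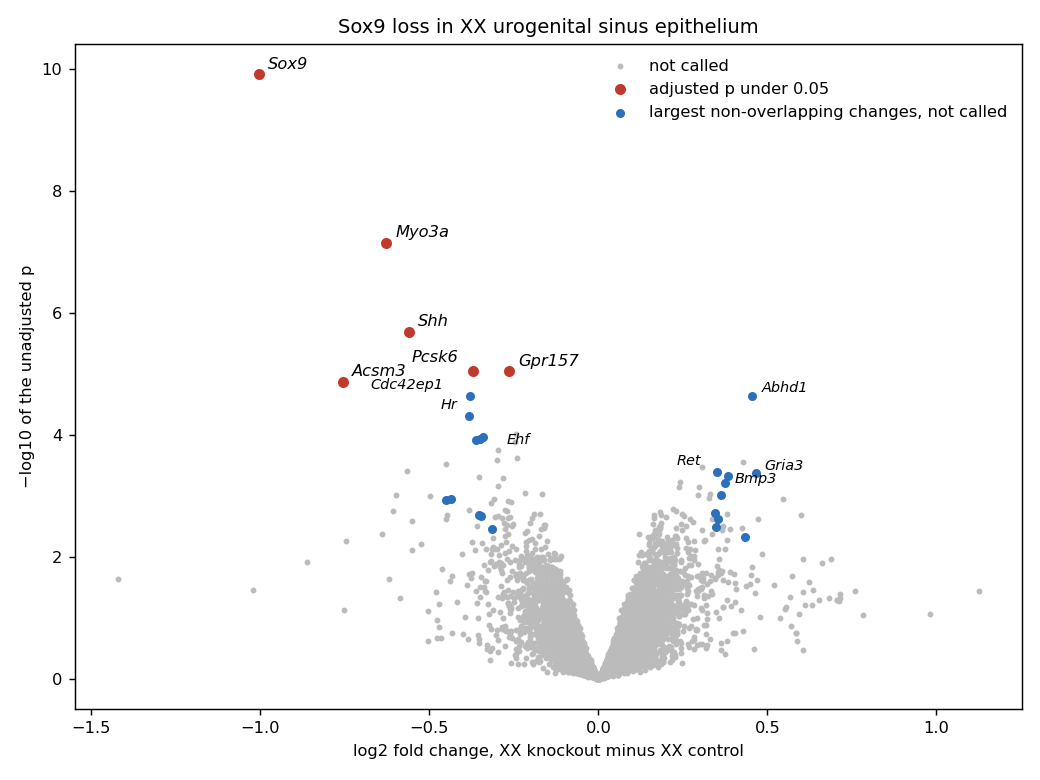
Log2 fold change of female knockouts minus female controls (x axis) against −log10 of the unadjusted limma p (y axis) for the 19067 genes tested, with called genes in red and, in blue, the 20 genes of largest change among those not called whose arrays did not overlap and whose unadjusted p was under 0.01. The 6 called genes all lie on the negative side, with Sox9 at -1.0 and a p far smaller than that of any other gene.

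Sox9, the deleted gene, read 8.82, 8.93, 9.05, 8.77 and 8.89 in female controls 1 to 5 and 7.99, 7.82, 7.83, 7.81 and 7.98 in knockouts 1 to 5. The groups did not overlap, and every knockout sat well below the lowest control. The log2 fold change was -1.0 (SE 0.089, limma adjusted p = 2.31e-06), and an exact two-sided permutation test over 252 regroupings gave p = 0.00794, the smallest that 5 against 5 arrays allow. All knockouts remained above the array medians. Whether its probes fall inside the floxed segment was not analysed here. In bulk tissue fewer cells with the transcript and less transcript per cell cannot be told apart. None of the 17 other SOX genes and SOX9 cofactors tested passed, and none had an unadjusted p under 0.05. Sox6, a cofactor of SOX9 in cartilage, was at -0.11 and Sox2 at 0.05.

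Shh read 10.48, 10.52, 10.97, 10.91 and 10.89 in the controls and 10.04, 10.09, 10.27, 10.18 and 10.39 in the knockouts. The groups did not overlap, but the highest knockout came close to the lowest control, and controls 1 and 2 were lower than the other 3. Shh fell by 0.56 on the log2 scale (SE 0.088, adjusted p = 0.0129; exact permutation p = 0.00794). Its fall cannot be assigned to the loss of Sox9, since the inserted Cre allele and the genotype of Sox9 cannot be told apart in these groups. The same holds for every difference reported below.

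Of the 14 hedgehog pathway genes tested, Shh was the only one that passed or had an unadjusted p under 0.05. At that threshold 2.4% of all genes were lower and 3.07% higher. The list had a median log2 fold change of -0.05, against 0.0083 over all genes. Ptch1, the receptor and a transcriptional target of the pathway, read 9.13 to 9.36 in controls and 9.37 to 9.40 in knockouts. The groups were separate by a very small margin, with control 5 the lowest array, and the change of 0.08 (SE 0.060, unadjusted p = 0.18) did not pass. Smo, the signal transducer, was at -0.13 (SE 0.061), and Gli1, a target that reports pathway activity, at -0.02. These values do not measure the response of the mesenchyme, which receives sonic hedgehog and had been taken off.

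The other called genes have functions outside this pathway, and each is shown with its RefSeq promoter because these genes fell together. Myo3a encodes a class III unconventional myosin with a kinase domain, known from the stereocilia of hair cells. Pcsk6 encodes a proprotein convertase that cleaves precursors of TGF-beta family ligands. Gpr157 encodes an orphan G protein-coupled receptor, and Acsm3 a mitochondrial medium-chain acyl-CoA synthetase. The 250 bases before each start, on the plus strand of GRCm38.p6, lie at chr2:22227253-22227502 for Myo3a, chr7:65861886-65862135 for Pcsk6, chr4:150087253-150087502 for Gpr157 and chr7:119760673-119760922 for Acsm3, and are printed 5′ to 3′ in lower case.
Myo3a: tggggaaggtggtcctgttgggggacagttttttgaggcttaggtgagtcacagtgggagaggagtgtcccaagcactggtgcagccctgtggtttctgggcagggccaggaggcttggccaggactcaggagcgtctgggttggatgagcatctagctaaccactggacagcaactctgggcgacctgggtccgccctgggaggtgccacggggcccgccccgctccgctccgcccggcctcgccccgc
Pcsk6: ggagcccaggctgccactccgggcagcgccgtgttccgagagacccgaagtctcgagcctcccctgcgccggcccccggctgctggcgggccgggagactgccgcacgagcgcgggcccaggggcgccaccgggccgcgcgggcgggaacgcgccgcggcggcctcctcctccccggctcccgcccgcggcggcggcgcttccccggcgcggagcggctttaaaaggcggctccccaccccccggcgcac
Gpr157: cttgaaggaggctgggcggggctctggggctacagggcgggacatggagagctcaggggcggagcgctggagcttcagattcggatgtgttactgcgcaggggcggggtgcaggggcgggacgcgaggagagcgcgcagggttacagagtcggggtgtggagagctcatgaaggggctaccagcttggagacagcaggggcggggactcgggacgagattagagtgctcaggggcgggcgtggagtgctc
Acsm3: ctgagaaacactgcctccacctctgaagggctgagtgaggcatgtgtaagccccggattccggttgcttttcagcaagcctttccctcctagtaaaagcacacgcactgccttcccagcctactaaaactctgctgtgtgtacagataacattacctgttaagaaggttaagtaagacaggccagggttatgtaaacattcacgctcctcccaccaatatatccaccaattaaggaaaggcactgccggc
The windows were searched on both strands for ACAAAG and ACAATG, the core letters of SOX binding motifs, and none of the 4 held either. Among 32851 promoter windows of 250 bases in the same table, 25.2% held at least 1 of them, 16.5% ACAAAG and 10.7% ACAATG. The absence says only that these letters are not in these windows. The base composition of the 4 windows differed widely, from 49.2% G and C in Acsm3 through 66% in Myo3a and 67.2% in Gpr157 to 81.2% in Pcsk6.

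Myo3a read 5.76, 5.75, 5.65, 5.94 and 6.14 in the controls and 5.16, 5.35, 5.07, 5.27 and 5.23 in the knockouts. The groups were clearly separate, and the knockouts lay close to the array medians. Its log2 fold change was -0.63 (SE 0.080, adjusted p = 0.000669). Of 22 unconventional myosins tested it was the only one called. Myo1d and Myo1e, membrane-linked class I myosins, were lower at unadjusted p under 0.05 (-0.20 and -0.17), so that 3 of the 22 were, against 2.4% of all genes.

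Pcsk6 read 7.06, 7.24, 7.13, 7.03 and 7.02 in the controls and 6.68, 6.90, 6.72, 6.59 and 6.75 in the knockouts. No knockout reached a control, although knockout 2 came near. The change was -0.37 (SE 0.065, adjusted p = 0.0343). It was the only one of the 9 genes tested of a list of proprotein convertases, their inhibitor Pcsk1n and the ligands Nodal and Lefty1 that was called or had an unadjusted p under 0.05.

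Gpr157 read 7.82, 7.65, 7.71, 7.62 and 7.69 in the controls and 7.45, 7.37, 7.44, 7.43 and 7.47 in the knockouts. Both groups were tight and did not overlap, so that a small change of -0.26 (SE 0.046, adjusted p = 0.0343), a 1.20-fold decrease, passed the test.

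Acsm3 read 6.86, 6.25, 6.87, 6.82 and 6.65 in the controls and 6.32, 5.47, 6.03, 5.84 and 6.02 in the knockouts. Control 2 lay below knockout 1, so the groups overlapped by these arrays, and replicate 2 was the lowest array of each group. The change was -0.76 (SE 0.136, adjusted p = 0.0425). Among 18 acyl-CoA synthetases and fatty acid oxidation genes tested it was the only one called. Acadl and Hadhb, enzymes of mitochondrial beta-oxidation, were higher at unadjusted p under 0.05 (0.21 and 0.18), so that 2 of the 18 were, against 3.07% of all genes.

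**Figure D2:**
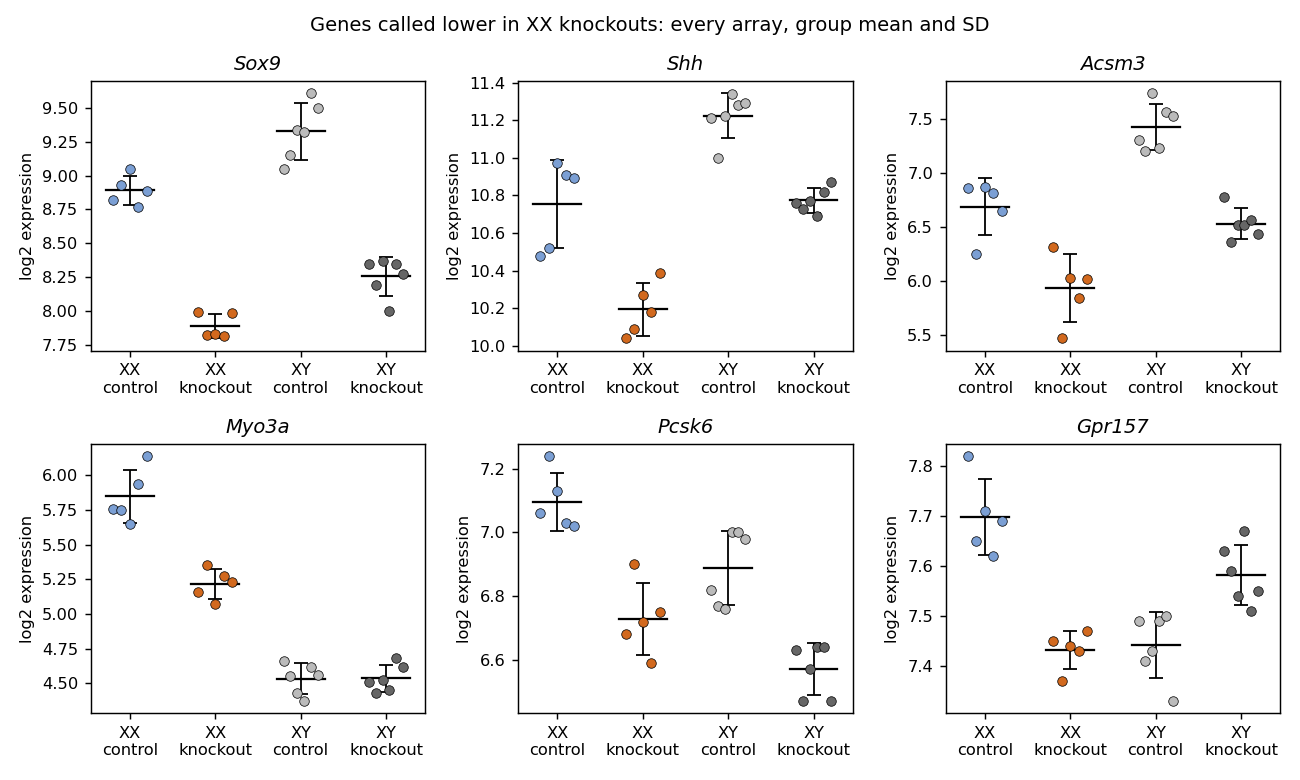
Log2 expression of the 6 genes that fell in XX knockouts, with 1 point for each array, horizontal lines at group means and error bars of 1 SD (5 arrays in each female group, 6 in each male group; each panel has its own y axis). The female groups are separate for 5 genes and overlap for Acsm3, and Myo3a lies between 4.37 and 4.68 on all male arrays.

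The calls differed in how much they rested on single arrays. Sox9 and Myo3a stayed called when any 1 of the 10 female arrays was left out. Shh was lost without control 3 (log2 fold change -0.51, adjusted p = 0.0739), control 5 (-0.53, 0.0576), knockout 1 (-0.52, 0.0600) or knockout 4 (-0.56, 0.0545). Pcsk6 stayed called in 2 of the 10 fits, Acsm3 in 2 and Gpr157 in 1, with adjusted p of at most 0.191, 0.202 and 0.151, and none of the 6 changed sign under any alternative run. Those 3 genes were also lost under quantile normalization (adjusted p = 0.173 for Pcsk6, 0.0694 for Acsm3 and 0.0513 for Gpr157) and after centring each array on its median (0.0868, 0.0868 and 0.251), with changes of nearly the same size. Acsm3 was lost without male control 6 as well (adjusted p = 0.0617), with the same change of -0.76. When the 10 female arrays were fitted alone, Sox9 was the only one of the 6 that stayed called.

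Below the threshold, and leaving predicted genes and RNA models aside, 76 genes had separate groups and an unadjusted p under 0.01, 41 of them lower and 35 higher in knockouts. None of these is a called change. The largest among them are given here by function with their values.

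Dsg3, a desmosomal cadherin of basal keratinocytes, read 6.96, 6.44, 6.66, 6.37 and 6.63 in controls and 6.27, 6.29, 6.01, 6.06 and 6.18 in knockouts (-0.45, SE 0.121, adjusted p = 0.515). The gap between the groups was narrow. Dsc3, its desmocollin partner, was named after its values were seen and read 6.79 to 7.67 in controls against 6.20 to 6.95 in knockouts, with overlap (-0.61, SE 0.172, adjusted p = 0.598). Both genes build desmosomes, and only Dsg3 had separate groups. Hr, a nuclear corepressor needed for the hair cycle, read 7.54 to 7.85 and 7.14 to 7.47 without overlap (-0.38, SE 0.076, adjusted p = 0.104). Ly6g6c, a GPI-anchored protein of the Ly6 family, read 8.23 to 8.34 and 7.84 to 8.01, a wide gap relative to the spread of either group (-0.35, SE 0.10, adjusted p = 0.598). Adh7, a retinol-oxidizing alcohol dehydrogenase of epithelia, read 6.34 to 6.74 and 5.81 to 6.30 (-0.43, SE 0.116, adjusted p = 0.515).

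In the list of squamous and cornified genes, 4 of 17 were lower at unadjusted p under 0.05 and 0 were higher, against 2.4% and 3.07% of all genes, but the list median was -0.02. These were the suprabasal keratins Krt1 (-0.38) and Krt10 (-0.28), Krtdap (-0.34) and the cysteine protease inhibitor Stfa1 (-0.44), and all 4 had overlapping groups. Stfa1, Cstdc5 (-0.50) and Cstdc6 (-0.55) belong to a family of near-identical copies whose probe sets may not tell them apart, so they are not separate evidence, and both Cstdc genes were named after their values were seen. Lor and Ivl, defining genes of the cornified envelope, were at -0.004 and 0.14 and did not have an unadjusted p under 0.05.

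The Notch1 receptor read 9.67, 9.60, 9.55, 9.45 and 9.76 in controls and 9.18, 9.12, 9.40, 9.42 and 9.35 in knockouts. The groups touched without overlapping, knockout 4 lying just under control 4. The log2 fold change was -0.31 (SE 0.096, unadjusted p = 0.0035, adjusted p = 0.641). Notch2 was also separate but by a smaller change (9.85 to 9.92 against 9.67 to 9.83, -0.11, unadjusted p = 0.054). Of 18 Notch pathway genes tested (ligands, receptors, targets and the fringe glycosyltransferases), 1 was lower at unadjusted p under 0.05, against 2.4% of all genes, and 0 were higher; the target Hes1 was at -0.09.

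Transcription factors of epithelia were found on both sides. Ehf, an ETS factor of differentiating epithelia, read 9.88 to 10.07 in controls and 9.51 to 9.75 in knockouts without overlap (-0.30, SE 0.066, unadjusted p = 0.00018, adjusted p = 0.223). The related factor Elf3 (-0.26, SE 0.10) and the AP-2 factor Tfap2a (-0.26, SE 0.070) were lower at unadjusted p under 0.05 with overlapping arrays. Gata2 (0.25, SE 0.103) and Hoxd13 (0.24, SE 0.104) were higher at that threshold. Of the 19 listed factors tested, 3 were thus lower and 2 higher, against 2.4% and 3.07% of all genes. The remaining 14 of the 19 listed factors had unadjusted p over 0.05, among them Foxa1 (0.02), a pioneer factor of this epithelium, and Trp63 (0.01), the master regulator of basal cells.

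Of 30 integrins and basement membrane genes tested, 5 were lower at unadjusted p under 0.05 (Itgb8, Itga2, Itgb4, Itgb6 and Hspg2) and 1 was higher (Itga8), against 2.4% and 3.07% of all genes. A positive change was seen for 10 of 30, against 54.8% of all genes, and the median was -0.06. None passed the adjusted threshold, and none had separate groups. Itgb8, a subunit of the receptor that activates latent TGF-beta, read 7.05 to 7.23 in controls and 6.52 to 7.11 in knockouts, where knockout 2 was the array within the control range (-0.38, SE 0.107, unadjusted p = 0.0017). Itga2, the collagen receptor subunit, was at -0.45 (SE 0.132) and Itgb4, the hemidesmosome subunit, at -0.19 (SE 0.069). Hspg2, which encodes the heparan sulfate proteoglycan perlecan, was at -0.19. Among the laminin and collagen IV chains of the list, none had an unadjusted p under 0.05.

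The remaining leading lower genes had mixed functions. Cdc42ep1, an effector of the small GTPase CDC42, came as near to a call as any gene, at 8.21 to 8.45 in controls and 7.88 to 8.07 in knockouts (-0.38, SE 0.071, adjusted p = 0.0553). Mamld1, a mastermind-like coactivator linked to hypospadias, was at -0.36 (adjusted p = 0.176), Sel1l3 at -0.35 (0.176), the nucleoporin-like gene Nupl2 at -0.34 (0.176) and Spns2, a sphingosine-1-phosphate transporter, at -0.35 (0.598). Cxcl14, a chemokine of epithelia, was lower by a larger amount but with overlap (7.79 to 8.39 against 7.33 to 7.92, -0.57, SE 0.136, adjusted p = 0.351). Ceacam1, a cell adhesion molecule named after its values were seen, read 7.53 to 8.19 against 7.11 to 7.71 (-0.60, SE 0.158, adjusted p = 0.503).

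None of the higher genes was called either. Abhd1, of the alpha/beta hydrolase family, read 6.00, 6.00, 5.95, 5.95 and 5.90 in controls and 6.40, 6.51, 6.48, 6.48 and 6.22 in knockouts. The groups were far apart, and the change of 0.46 (SE 0.086, adjusted p = 0.0553) just missed the threshold. Gria3, a subunit of AMPA-type glutamate receptors, had the largest change of the leading higher genes, reading 6.37 to 6.75 and 6.82 to 7.20 (0.47, SE 0.113, adjusted p = 0.355). Ret, the receptor tyrosine kinase for GDNF family ligands, read 8.11 to 8.38 and 8.49 to 8.69 (0.35, SE 0.084, adjusted p = 0.351). Bmp3, a divergent member of the BMP family, read 7.47 to 7.66 and 7.75 to 8.18 (0.38, SE 0.094, adjusted p = 0.420). The groups of all 3 were separate. The other 6 were Tspyl5 (0.43), Sh3bgr (0.36), the tRNA-modifying enzyme gene Cdk5rap1 (0.35), Eya4 (0.35), a transcriptional coactivator with phosphatase activity, Fanci (0.35), a Fanconi anaemia protein of DNA repair, and Hoxd12.

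Hoxd12, a posterior homeobox gene that patterns the hind end of the body, read 7.36, 7.20, 7.31, 7.42 and 7.42 in controls and 7.85, 7.73, 7.50, 7.50 and 8.06 in knockouts. All knockouts were above all controls, knockouts 3 and 4 by little (0.38, SE 0.094, unadjusted p = 0.00047, adjusted p = 0.375). Its neighbours of the HoxD cluster, Hoxd13 (0.24) and Hoxd11 (0.16), were also higher at unadjusted p under 0.05, and Hoxd10, named after its values were seen, was at 0.19 (SE 0.094). The other HoxD genes of the list, Hoxd9 and Hoxd8, were at 0.06 and 0.04. Of 14 posterior HOX genes tested 3 were thus higher at unadjusted p under 0.05, against 3.07% of all genes, and 7 of 14 had a positive change, against 54.8%. The HoxA paralogs were at -0.08 (Hoxa11) and 0.01 (Hoxa13), and Hoxb13, a marker of the prostate lineage, at -0.04. The list median was 0.0035.

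Uroplakins, the membrane proteins of the bladder lining and of neighbouring epithelium, made the urothelium list the one with the highest median. Of 11 members tested, 4 were higher at unadjusted p under 0.05 (against 3.07% of all genes), 9 had a positive change, and the median was 0.14, or 0.088 without knockout 1 and 0.26 without knockout 2. The 4 were Upk1a (0.21, SE 0.071), Upk2 (0.40, SE 0.159), Upk3b (0.47, SE 0.194) and Upk1b (0.14, SE 0.064), and none was called. The mean of the list over its 11 genes was 9.68, 9.74, 9.90, 9.89 and 9.72 in controls 1 to 5 and 10.16, 9.68, 10.11, 9.73 and 10.12 in knockouts 1 to 5. Knockouts 1, 3 and 5 were above all controls, while knockouts 2 and 4 lay within the control range.

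Other genes were high on the same arrays. Sptssb, a subunit of serine palmitoyltransferase, had the largest positive fold change of all 19067 genes (1.13, SE 0.505, adjusted p = 0.890). It read 6.43, 6.91, 7.69, 7.77 and 7.00 in the controls and 9.07, 7.15, 8.95, 7.47 and 8.80 in the knockouts. Hsd17b2, which oxidizes estradiol and testosterone, read 6.11 to 6.97 in controls and 7.71, 6.28, 7.97, 6.42 and 7.61 in knockouts (0.63, adjusted p = 0.924). The fatty acid carrier gene Fabp4 read 4.72 to 5.20 in controls and 5.98, 4.89, 6.15, 5.02 and 5.81 in knockouts (0.60, adjusted p = 0.820). These 3 and Upk3a were named after their values were seen. For Upk3a the knockouts read 10.75, 9.68, 10.52, 9.69 and 10.68 against 9.20 to 10.14 in controls (0.55, unadjusted p = 0.068). Knockouts 2 and 4 lay within the control range for each of these genes. Bladder epithelium had been removed by hand, and the part of urothelial cells in these values was not tested. Krt20, Krt7 and Krt13, other members of the list, were at 0.15, -0.01 and -0.28, with unadjusted p over 0.05. With the list mean of each array as a covariate 6 genes were called, and Pcsk6 (-0.38, adjusted p = 0.0662) and Gpr157 (-0.28, 0.0506) were not among them, although their changes were as large as without it.

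**Figure D3:**
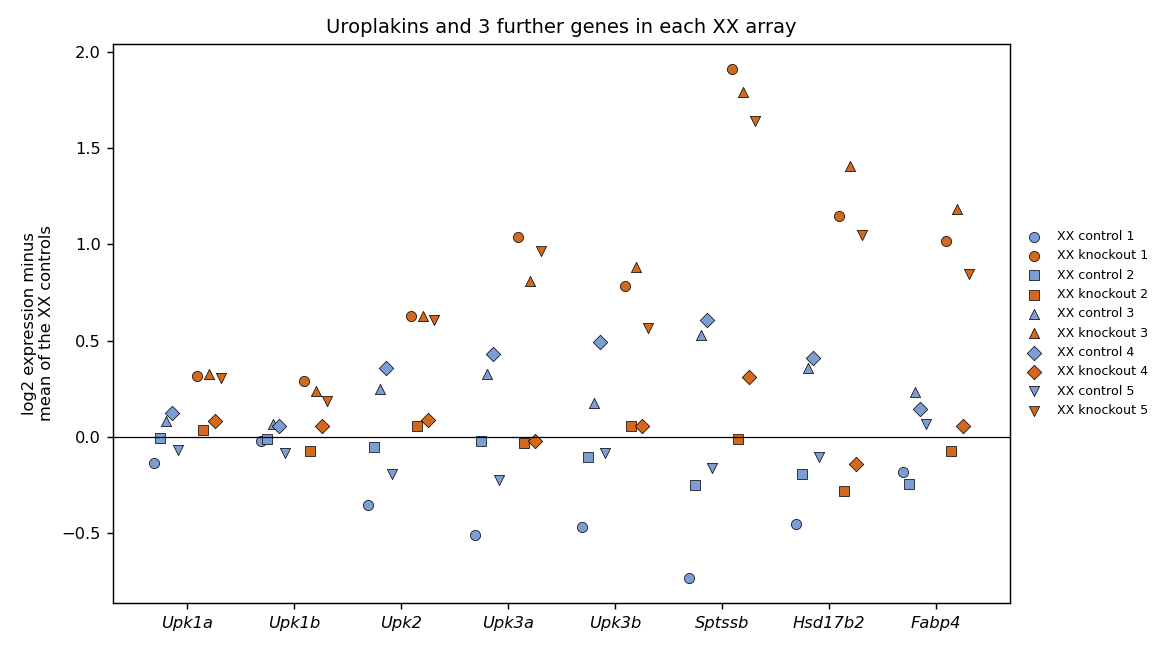
Log2 expression of each female array minus the mean of the 5 female controls (y axis) for 5 uroplakins, Sptssb, Hsd17b2 and Fabp4, with controls in blue, knockouts in orange and 1 symbol per replicate number. Knockouts 1, 3 and 5 lie highest for each gene, and knockouts 2 and 4 lie among the controls.

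Markers of the other cell types that the dissection could hold were compared in the same way. Immune markers had a median change of 0.14 (0.082 without control 1) and were positive for 11 of 11 tested, against 54.8% of all genes, with list means of 6.26 to 6.43 in controls and 6.27 to 6.64 in knockouts. The macrophage adaptor gene Tyrobp was the only one with an unadjusted p under 0.05 (0.26, SE 0.111), the general leukocyte gene Ptprc lay near background (3.72 to 4.04 on all female arrays) and was not tested, and no immune gene was called. Mesenchyme list means were 7.09 to 7.37 in controls and 7.07 to 7.24 in knockouts (median change -0.09 over 11 genes, 0 with unadjusted p under 0.05). That median ran from -0.12 without control 2 to -0.038 without control 3. Smooth muscle (5.89 to 6.03 and 5.82 to 6.02), endothelium (5.57 to 5.71 and 5.61 to 5.65), red cells (5.44 to 5.68 and 5.37 to 5.59), nerve and neural crest (6.85 to 6.96 and 6.78 to 6.99), and Mullerian and Wolffian duct epithelium (6.30 to 6.55 and 6.30 to 6.76) overlapped between the groups. The part of these cells in the results above was not tested. With the mesenchyme list mean as a covariate 4 genes were called. Pcsk6 (-0.36, adjusted p = 0.0516) and Acsm3 (-0.75, 0.0708) were no longer called, with changes of nearly the same size.

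The lists of pathways known from Sox9 in other organs gave few differences. Of 15 SOX9 targets of cartilage tested, including Col2a1 (-0.02) and Acan (0.01), 0 had an unadjusted p under 0.05. Of 18 genes of Sox9-dependent progenitors in hair, gut, kidney and lung, 3 were lower (Col14a1, Cxcr4 and Nfatc1) and 1 was higher (Ret) at that threshold, against 2.4% and 3.07% of all genes. In the retinoic acid pathway 0 of 17 and in the WNT list 0 of 23 had an unadjusted p under 0.05. In the FGF list 2 of 15 genes, Ret and Fgf1 (0.15), were higher at that threshold, against 3.07% of all genes. In the BMP and TGF-beta list Bmp3, which was higher, was the only one of 24. In the prostaglandin list Ptger3, a receptor for prostaglandin E2, was the only one of 17 (0.34, SE 0.106). The lists of estrogen-responsive and vaginal epithelium (0 of 12) and of p53 response and apoptosis (0 of 17) had none. Among 27 genes of the cell cycle 1, E2f1, was lower (-0.12), against 2.4% of all genes.

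Over 37 lists with 530 distinct genes tested, 5 lists held a called gene and 32 held none. The medians of 35 lists lay within 0.1 of 0, and those of the urothelium and immune lists were above 0.1.

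**Figure D4:**
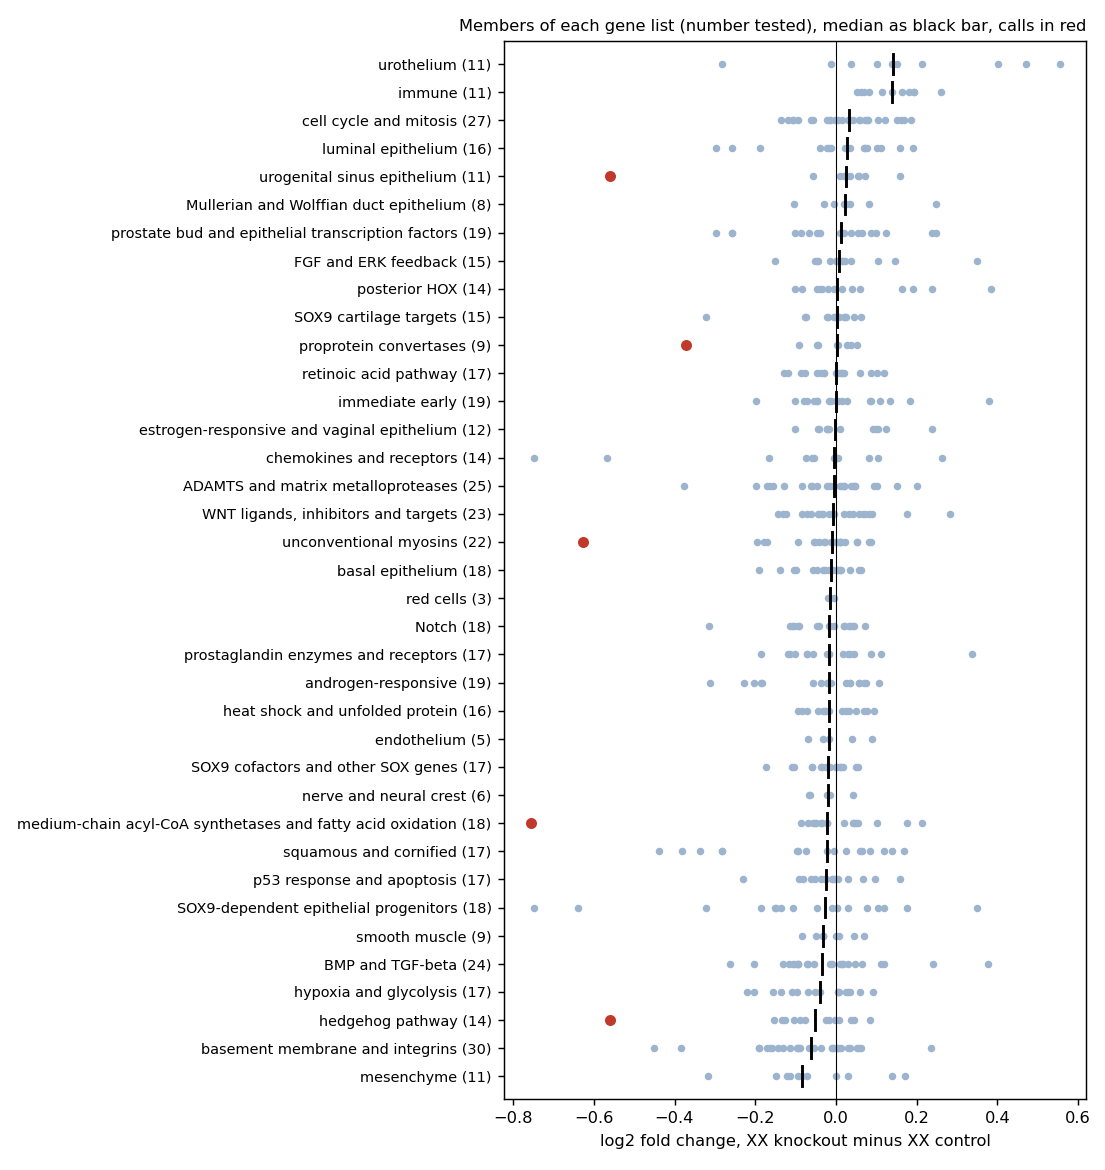
Log2 fold change in XX epithelium (x axis) of each tested member of 37 gene lists (rows, number tested in parentheses), with list medians as black bars and called genes in red. Medians run from -0.09 for mesenchyme (-0.12 to -0.038 without single arrays) to 0.14 for urothelium, and 5 lists hold a called gene, Shh being in both the urogenital sinus epithelium and hedgehog lists.

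Most genes with large fold changes were small RNAs, RNA models or predicted genes. At 1.5-fold or more, 23 genes were higher and 13 lower. Of the higher ones 19 were of that kind, and the other 4 were Sptssb, Hsd17b2, Fabp4 and Fam183b. Of the lower ones 6 were of that kind, and the other 7 were Sox9, Acsm3, Cxcr4, Col14a1, Myo3a, Dsc3 and Ceacam1. The groups were separate for 1 of the 23, the small nucleolar RNA Snord93 (0.60, adjusted p = 0.598), and for 2 of the 13, Sox9 and Myo3a. Of all genes, 0.771% were separate and higher, and 0.624% separate and lower. The largest negative fold change was that of the microRNA gene Mir5123, at 6.32 ± 1.70 (SD, n = 5) in controls and 4.90 ± 0.95 (n = 5) in knockouts, which overlapped widely (limma adjusted p = 0.873).

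The same genotype contrast in XY arrays called 38 genes (0.199% of those tested), of which Sox9, Shh, Acsm3 and Pcsk6 were also called in XX. Without male control 6 there were 27 (0.142%), all of them among the 38, and Pcsk6 was lost (-0.30, adjusted p = 0.0610). A count of calls does not compare the sexes, and the difference between them was tested directly. That test called 1 gene (0.00524%), Gpr157. In males its controls read 7.33 to 7.50 and its knockouts 7.51 to 7.67, so that the male groups were separate in the opposite direction (0.14, SE 0.042, adjusted p = 0.378). The female change minus the male change was -0.40 (SE 0.063, adjusted p = 0.0292). This call was lost under quantile normalization (adjusted p = 0.0769), after median centring (0.578) and without male control 6 (-0.38, adjusted p = 0.0549). Of the fits without 1 female array it was kept only without control 3 or control 4, with adjusted p of at most 0.0810 in the others.

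Myo3a had the next smallest p for the difference between the sexes but did not pass. Its male arrays read 4.37 to 4.66 in controls and 4.43 to 4.68 in knockouts, below the array medians, and the male change was 0.002. Myo3a was thus bright enough to be tested only through female arrays, and a male change could hardly show at this level. The difference between the sexes was -0.63 (SE 0.108, unadjusted p = 6.80e-06, adjusted p = 0.0649). For Sox9 the difference was 0.07 (SE 0.121), for Shh -0.11, for Acsm3 0.15 and for Pcsk6 -0.05, each with an adjusted p of 0.997.

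The genes called in XY mostly had smaller changes in XX. Leaving out Sox9 and Shh, 35 of these 36 genes had equal signs in both sexes, against 52.6% of all genes. Of the 36, 34 had the smaller change in females, and 9 had separate female groups, against 266 of all 19067 genes. The median absolute log2 fold change of the 36 was 0.52 in males and 0.29 in females. For the difference between the sexes 23 of the 36 had an unadjusted p under 0.05. The share of all genes with such a p is not given here. Without male control 6 the same 36 genes had a median of 0.48 in males, 33 had the smaller change in females, and 19 had such a p. The male values chose these genes, so that a smaller female value is in part built into the choice and is a description. Cxcr4, the receptor for the chemokine CXCL12, read 7.67, 7.02, 7.16, 6.64 and 7.31 in female controls and 6.55, 6.99, 6.30, 5.74 and 6.50 in female knockouts, with overlap (-0.75, SE 0.243, adjusted p = 0.728; male change -1.76). Col14a1, a fibril-associated collagen, read 7.00 to 7.90 and 6.57 to 7.09 (-0.64, SE 0.201, adjusted p = 0.690; male change -1.25). Mia, a small secreted protein also made in cartilage, read 6.12 to 6.77 and 5.52 to 6.66 (-0.32, SE 0.181, adjusted p = 0.939; male change -1.21). Peg10 (-0.33), Adamts9 (-0.38), Itgb8 (-0.38) and Car13 (-0.37) had female changes with the sign of their male changes of -0.83, -0.80, -0.80 and -0.79. Without male control 6 the male changes were -1.64 for Cxcr4, -1.05 for Col14a1, -1.09 for Mia and -0.69 for Peg10. They were -0.70 for Adamts9, -0.76 for Itgb8 and -0.69 for Car13. Each of these genes was still called in males, with a larger change than in females. Lrrc7, higher by 0.70 in males, was at 0.05 in females, where its arrays read 4.60 to 5.10 and 4.69 to 5.06. All female arrays lay below the array medians for Lrrc7, and it was bright enough to be tested only through male arrays. Its female value says little on whether the sexes differ.

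**Figure D5:**
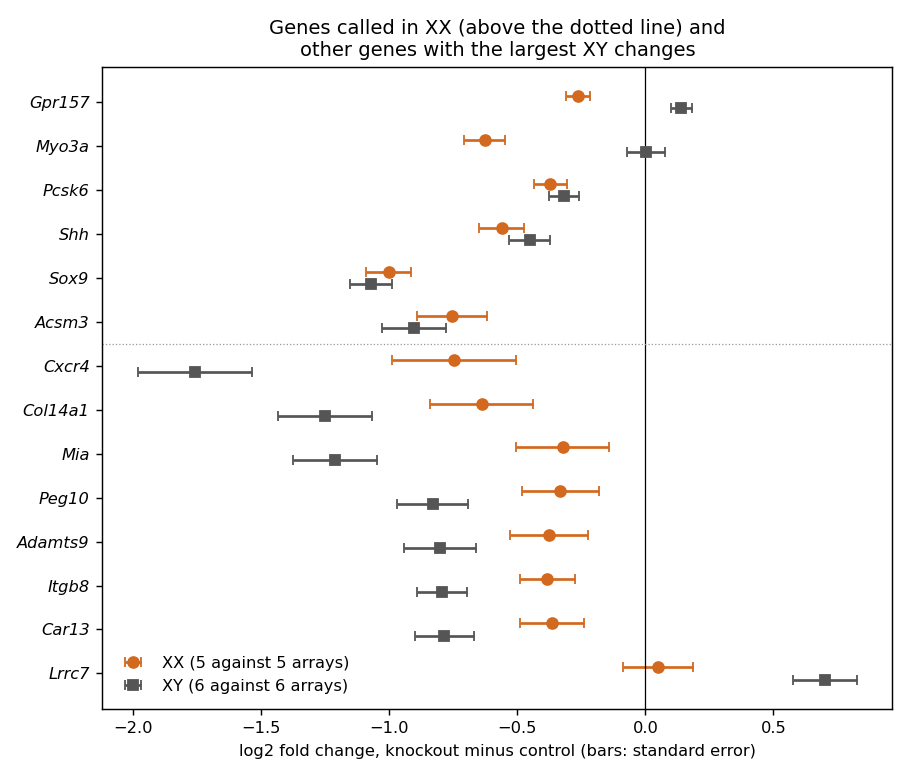
Log2 fold change of knockouts minus controls in XX (orange circles, 5 against 5 arrays) and XY epithelium (grey squares, 6 against 6 arrays), with bars of 1 standard error, for the genes called in XX above the dotted line and other genes of the largest XY changes below it. The difference between the sexes was called for Gpr157 (-0.40) and did not pass for Myo3a (-0.63), and Cxcr4, Col14a1 and Mia are further from 0 in XY than in XX.

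The leading lower and higher genes of XX epithelium were compared with the male arrays, which are other samples. The male arrays also entered the common estimate of the spread behind the p-value that chose these genes. The male p-values of these genes are therefore not independent of that choice. Of the 41 lower genes 33 (80.5%) were also lower in males, among them Hr (-0.42, male adjusted p = 0.0053), Mamld1 (-0.45, 0.0029), Sel1l3 (-0.45, 0.0019) and Cdc42ep1 (-0.37, 0.0075), all 4 called there. Of the 35 higher genes 16 (45.7%) were also higher in males, against 52.6% of all genes whose signs were equal in both sexes. Without male control 6 the shares were 31 of 41 (75.6%) and 21 of 35 (60%), against 53.9% of all genes, so the share of the higher genes moved with that array. The shares of all genes pool both directions, while 54.8% of genes had a positive change in females and 56.7% in males. They are therefore not matched to the lower or to the higher genes. Hr, Mamld1, Sel1l3 and Cdc42ep1 stayed called in males without male control 6. Bmp3 was higher in both and was called in males (0.51, adjusted p = 0.0053). Notch1 (0.02) and Ret (0.05) had male changes near 0, and the difference between the sexes had an unadjusted p of 0.018 and 0.015 and an adjusted p of 0.997 for each. Among all genes with separate female groups, 70 of 117 lower genes without Sox9 and Shh (59.8%) and 69 of 147 higher genes (46.9%) shared their sign with males. Without male control 6 these were 73 (62.4%) and 73 (49.7%). Genes are not independent of each other, so these shares are descriptions without a test.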

How the data were processed

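RNA from urogenital sinus epithelium was biotin-labelled and hybridized to Affymetrix whole-transcript arrays, per the labels' protocols. The authors deposited log2 values of 72688 probe sets (6732 of them controls) on 22 arrays. The log2 scale was inferred from their range of 1.59 to 14.23. How the arrays were background-corrected, normalized and summarized is not given in the sources used here, and the values were taken as deposited.

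The platform's annotation gave exactly 1 symbol to 30604 probe sets, several to 2146 and none to 33206, and 827 symbols were updated through their gene identifiers. Genes were tested if their probe set lay above the 50th percentile of its array on at least 5 arrays. Group means of the 4 groups were fitted over all 22 arrays with limma 3.58.1 in R 4.3.3 (18 residual and 4.33 prior degrees of freedom), and p-values were adjusted by Benjamini-Hochberg over 19067 genes. The script was tested on simulated data. No litter, batch or scan date was labelled, so no covariate was fitted. The labels do not say whether the replicate numbers pair the female arrays. The deviations of same-numbered arrays correlated at -0.16 to 0.13 over the genes tested, which cannot settle it.

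The genes named are Sox9 and Shh, all called genes, the 10 largest changes in each direction among uncalled genes with separate groups and an unadjusted p under 0.01, for each list the members with the smallest p (at most 4, or all that a count of 5 or fewer refers to), the 10 largest changes among genes called in males, and tissue markers. Predicted genes and RNA models were left out of the choices by size of change. Others are said to be named after their values were seen, and the list members quoted with p over 0.05 were chosen for their known roles with values in view. The members and lists were chosen with earlier results of these data known. Promoters are those of RefSeq on GRCm38.p6, in which 4 of the 6 called genes were matched. Alternatives were quantile normalization, median centring, no or a stricter filter (75th percentile), averaging the probe sets of a gene, trend and robust options, array weights, a replicate block, 2 marker lists as covariates, only the 10 female arrays, and leaving out each female array. Leaving out male control 6 was added after the data were seen. Plots were made in Python 3.11.15 (matplotlib 3.10.9).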

Additional observations from a re-analysis of the deposited data

Results flagged for a closer look

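Single arrays were set apart by a gap test (Dixon) within a group of 5 female arrays. Among 86 groups tested (34 genes and 9 marker lists in both groups) 5 stood apart. Chance gives about 1 in 20 for groups that were not chosen by their values, whereas these genes were. Mamld1 read 6.91 in control 1 against 6.59 to 6.65 in the other controls. Cdk5rap1 read 7.50 in control 5 against 7.81 to 7.88. Eya4 read 6.24 in control 1 against 6.62 to 6.76. Ret read 8.69 in knockout 3 against 8.49 to 8.53 in the other knockouts. The mean of the red cell list was 5.68 in control 5 against 5.44 to 5.50. In all 4 genes the array that stands apart widens the difference between the groups, and none of these genes was called. The 4 genes were chosen for separate groups and an unadjusted p under 0.01, so this direction is largely built into the choice.

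Gpr157 was called for a difference between the sexes by the direct test, with a female minus male difference of -0.40 in log2 fold change. This call was lost under quantile normalization (limma adjusted p = 0.0769), after median centring (0.578) and without male control 6 (0.0549), among other alternatives.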

How the results depend on the processing

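The 6 genes called in females became 3 under quantile normalization, 3 after median centring, 3 with only the 10 female arrays, 11 with array weights, 5 with the replicate block and 2 to 6 when single female arrays were left out. Shh kept its change of -0.56 with only the female arrays but was not called (adjusted p = 0.201), and ranged from -0.63 to -0.51 over the fits without 1 array. The 1 gene called for the difference between the sexes became 0 under quantile normalization, median centring, no filter on dim probe sets, trend and robust options, the replicate block and without male control 6, became 2 with array weights, and ranged from 0 to 2 without single female arrays. Sox9 kept its call in all alternatives. Genes called in an alternative but not in the reported fit included Abhd1 and Cdc42ep1 (3 settings each) and Hr (2). Of the single genes, 1 changed sign: Lrrc7, at 0.05, ranged from -0.007 (without knockout 1) to 0.127 over the fits without 1 array. The cause of these differences was not tested. With 5 arrays a group, the median standard error of a female log2 fold change was 0.071, so that precision is limited by how many arrays there were. The 22 arrays carry no counts, so no depth can be given.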
